A study of Mus musculus with 8 samples.

Results

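Homeostatic microglia genes are the genes that microglia of the healthy brain express and that are commonly used to recognise these cells. The set described here comprised P2ry12, P2ry13, Tmem119, Cx3cr1, Fcrls, Siglech, Gpr34, Olfml3, Sall1 and Aif1, and its members were all probes annotated with one of these symbols on the array, 16 of 25697 probes for 10 of 16593 named genes. They were measured in brainstem total RNA of C57/BL6J mice on Illumina MouseRef-8 v2 expression arrays, with 1 array per mouse. The 4 Vglut2:Ndufs4cKO mice (cKO), whose genotype the labels also give as Vglut2:Ndufs4KO, were sampled at a late stage of disease and were compared with 4 Vglut2:Ndufs4cCT mice (cCT). By the methods of the study, cKO mice carried Slc17a6-Cre with a deleted and a floxed allele of Ndufs4, and cCT littermates carried Slc17a6-Cre with a floxed and a wild-type allele, so all 8 mice had the Cre transgene. Cre is driven by sequences of the Vglut2 gene, Slc17a6, which is active in glutamatergic neurons and not in microglia, and the deleted allele was present in all cells of cKO mice, microglia included. All 8 arrays lay on a shared beadchip, cKO arrays at positions E to H and cCT arrays at positions A to D, so position and genotype cannot be told apart.

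Microglia are the resident macrophages of the brain parenchyma. In the undisturbed brain they survey their surroundings with fine processes, and purinergic receptors, the fractalkine receptor and transforming growth factor beta signalling are known to maintain this state. In many models of injury and neurodegeneration the genes of this state are reported to fall in microglia, while genes of phagocytosis and lipid handling rise. In whole tissue, fewer cells of a type and less RNA per cell cannot be told apart, and the same holds for more cells and more RNA.

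The genes lie on several chromosomes. In GRCm38.p6 (RefSeq), P2ry13 (chr3:59207892-59210882) and P2ry12 (chr3:59216271-59262985) are neighbours with 5388 bases between them, both inside the span of Med12l and near a further purinergic receptor gene, P2ry14 (chr3:59114623-59153492). Fcrls (chr3:87250736-87263765) and Olfml3 (chr3:103735394-103738001) share their chromosome. Cx3cr1 lies at chr9:120048683-120068296, Tmem119 at chr5:113793729-113800396, Siglech at chr7:55768154-55779448, Sall1 at chr8:89027242-89044162, Aif1 at chr17:35170986-35176083 and Gpr34 at chrX:13622650-13640859, where it overlaps Cask. The sources used here did not place the array probes within these genes.

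Upstream sequences from RefSeq (GRCm38.p6) are shown for the members with the clearest difference between groups, Fcrls and Cx3cr1, and for the neighbours P2ry12 and P2ry13, whose groups overlapped. P2ry12, P2ry13 and Cx3cr1 are shown over the 150 bases before the transcript start, and Fcrls over the 29 bases that join its 2 matches nearest to the start of the transcript used, inside the annotated span of the gene. All are on the minus strand and written 5′ to 3′. Capitals mark GAGGAA, a core motif of PU.1, and TGTGGT, a core motif of RUNX factors, on either strand. PU.1 and RUNX factors are lineage factors of macrophages.
P2ry12 (chr3:59262986-59263135): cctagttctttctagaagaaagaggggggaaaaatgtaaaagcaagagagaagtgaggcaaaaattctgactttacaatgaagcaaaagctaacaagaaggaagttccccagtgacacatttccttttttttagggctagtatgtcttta
P2ry13 (chr3:59210883-59211032): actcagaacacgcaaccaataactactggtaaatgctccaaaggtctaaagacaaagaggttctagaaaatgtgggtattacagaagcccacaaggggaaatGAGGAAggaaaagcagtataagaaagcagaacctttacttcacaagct
Cx3cr1 (chr9:120068297-120068446): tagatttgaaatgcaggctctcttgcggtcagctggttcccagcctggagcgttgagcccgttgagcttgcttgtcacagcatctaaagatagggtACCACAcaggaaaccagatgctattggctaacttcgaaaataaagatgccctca
Fcrls (chr3:87263537-87263565): ACCACAgtgttctatcccagatcTGTGGT

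Promoters were matched for 8 of the 10 genes, giving 10 promoters, and not for Tmem119 and Gpr34. Within 250 bases upstream, GAGGAA was found in 3 of the 10 promoters, those of P2ry13, Fcrls and Aif1, against 23.3% of all 32817 promoters. TGTGGT was found in 4, those of P2ry13 (upstream of the bases shown), Cx3cr1, Fcrls and Siglech, against 14.04% of all. Fcrls had TGTGGT at 2 places, on opposite strands. The composite motif of PU.1 and IRF factors, whose letters can overlap those of the PU.1 motif, was in none of the 10 and in 2.30% of all promoters. TGCTGA, a MAF recognition motif, was in 1, that of Fcrls, against 16.1% of all, and TATAAA was also in that of Fcrls alone, against 12.4%. P2ry12 held none of the 5 motifs in this window.

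Between 14720 and 15042 probes were detected per cKO array and between 14293 and 14723 per cCT array, and the mean signal before scaling was 1392 to 1537 in cKO arrays and 1449 to 1707 in cCT arrays. The targeted gene was lower by 1 of its 4 probes. Ndufs4 probe ILMN_1234521 had log2 signals of 11.35, 11.72, 11.53 and 11.19 in cKO mice, against 13.35, 12.31, 12.80 and 12.97 in cCT mice (log2 fold change -1.41, SE 0.22, adjusted p = 0.0228 from limma), and the other 3 probes had log2 fold changes of -0.20 to -0.14 that did not pass. The call was lost without cKO replicate 1 or 3 or cCT replicate 3 or 4 (adjusted p = 0.0605 to 0.0864 from limma). Among markers of brain regions, 9 of 10 hindbrain genes on the array passed the detection filter. Of 3 forebrain genes on the array 0 passed it, and Emx2 and Lhx2 of these were detected on no array.

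Of the homeostatic microglia genes, only Fcrls differed between the groups after adjustment over all tested probes, and it was higher in cKO mice. Of the 16 probes, 14 passed the detection filter (detection p under 0.05 on at least 3 of 8 arrays), and 1 was higher, 0 were lower and 13 did not pass at an adjusted p under 0.05. Among all 15225 tested probes 0.703% passed, 0.670% higher and 0.0328% lower, by the same limma fit. At an unadjusted p under 0.05, 8 member probes were higher and 0 lower, against 6.86% and 3.02% of all tested probes. The log2 fold change was above 0 for 13 of 14 member probes, against 51.8% of all tested probes. Without overlap between the groups 2 member probes were higher and 0 lower, against 4.01% and 1.79% of all tested probes. With the brightest tested probe for each gene, the median log2 fold change of the 10 genes was 0.40, against 0.02 for all 10427 tested genes, whose 10th to 90th percentiles were -0.27 to 0.34. No member gene was lower in cKO mice by its brightest probe, and for 2 of the 10, Fcrls and Cx3cr1, the lowest cKO array lay above the highest cCT array, which held for 4.29% of all tested genes.

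**Figure D1:**
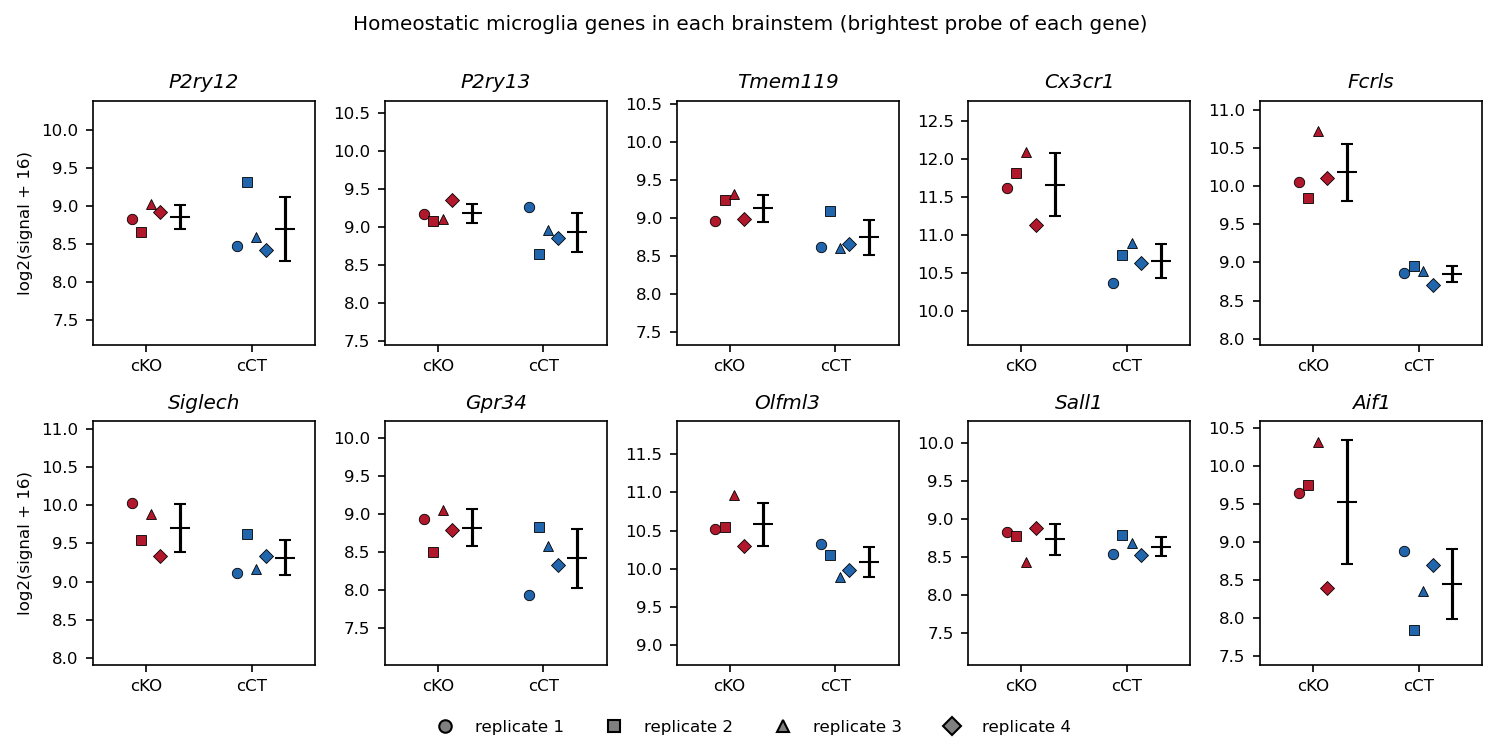
Log2(signal + 16) of the brightest probe of each homeostatic microglia gene, with cKO mice in red on the left of each panel and cCT mice in blue on the right. Each symbol is 1 array, its shape gives the replicate number, and black marks give the mean and SD of 4 arrays. Fcrls and Cx3cr1 are the genes without overlap between groups, and the vertical axes cover the same span in every panel but start at different levels.

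The signal values below are log2 of the normalised signal plus 16, listed for replicates 1 to 4, and log2 fold changes are cKO minus cCT on this scale, which understates the change of dim probes. The ADP receptors come first. P2ry12, which guides microglial processes towards released nucleotides, had 8.83, 8.66, 9.03 and 8.92 in cKO mice and 8.47, 9.32, 8.60 and 8.42 in cCT mice. All 4 cKO values lay inside the range of the cCT group, in which replicate 2 was the highest of all 8 arrays. The log2 fold change was 0.16 (95% interval -0.30 to 0.61, adjusted p = 0.834 from limma), so the interval reached from a 0.811-fold to a 1.53-fold level. It was 0.36 without cCT replicate 2 and 0.06 without cCT replicate 4, and 0.10 and 0.08 without cKO replicate 3 and cCT replicate 1.

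P2ry13, the neighbouring ADP receptor, had 9.17, 9.08, 9.11 and 9.36 in cKO mice and 9.27, 8.65, 8.96 and 8.85 in cCT mice. The cKO arrays were close together and cCT replicate 1 lay among them. Its log2 fold change was 0.25 (95% interval -0.09 to 0.58, adjusted p = 0.638 from limma), and 0.15 without cCT replicate 2. The third receptor gene at this locus, P2ry14, which binds UDP-glucose, had 10.08, 10.14, 10.35 and 10.54 in cKO mice and 10.03, 10.04, 9.84 and 9.92 in cCT mice by its brighter probe. These groups did not overlap, but the gap between them was 0.04, and the difference of 0.32 did not pass (adjusted p = 0.481 from limma). By P2ry14 probe ILMN_3154419 the groups overlapped, with a log2 fold change of 0.26 (adjusted p = 0.604 from limma), and ILMN_3075340 was detected on no array.

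Cx3cr1 encodes the receptor for fractalkine, a chemokine that neurons carry on their surface. Its log2 signal was 11.62, 11.82, 12.10 and 11.13 in cKO mice and 10.37, 10.74, 10.90 and 10.63 in cCT mice, with means of 11.66 ± 0.41 and 10.66 ± 0.22 (SD, n = 4 each). Every cKO array was above every cCT array, and cKO replicate 4 lay closest, 0.23 above the highest cCT array. The log2 fold change of 1.01 (SE 0.21, 95% interval 0.54 to 1.48), a fold of 2.01, missed the threshold over all tested probes (adjusted p = 0.0815 from limma), and a two-sided exact permutation test gave p = 0.0286, the smallest that 4 mice against 4 allow. Without cKO replicate 4 it passed, at 1.18 (adjusted p = 0.0207 from limma), and it also passed without background correction, with a variance trend and with array weights (adjusted p = 0.0460, 0.0352 and 0.0137). In the other 16 of 20 alternative fits Cx3cr1 did not pass (adjusted p up to 0.245 from limma), and it was 0.86 without cKO replicate 3 (adjusted p = 0.188). The fractalkine gene itself, Cx3cl1, had a log2 fold change of -0.05 (adjusted p = 0.947 from limma) and is named here after its value was seen.

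Fcrls, a scavenger receptor related to Fc receptors and a microglial marker in the mouse, was the member that rose. Its log2 signal was 10.06, 9.85, 10.72 and 10.11 in cKO mice and 8.86, 8.95, 8.89 and 8.71 in cCT mice, and the means were 10.19 ± 0.37 and 8.85 ± 0.10 (SD, n = 4 each). The cCT arrays lay within a narrow band, and the lowest cKO array was 0.90 above it. The log2 fold change was 1.33 (SE 0.18, 95% interval 0.92 to 1.74), a 2.52-fold higher signal, with an adjusted p of 0.0153 from limma and p = 0.0286 in the two-sided exact permutation test. The call was lost without cKO replicate 1, cCT replicate 3 or cCT replicate 4 (adjusted p = 0.0507, 0.0559 and 0.0589 from limma), where the log2 fold change was 1.38, 1.35 and 1.28.

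Siglech and Gpr34 each had 2 tested probes with log2 fold changes above 0, none of which passed. Siglech, a sialic acid binding lectin of microglia and plasmacytoid dendritic cells that signals through the adaptor Tyrobp, had 10.03, 9.54, 9.89 and 9.34 in cKO mice and 9.11, 9.62, 9.17 and 9.34 in cCT mice by its brightest probe, ILMN_2928599. Only cKO replicates 1 and 3 lay above all cCT arrays, and the log2 fold change was 0.39 (adjusted p = 0.538 from limma). The dimmer probe ILMN_1239190 had 8.49, 8.31, 8.92 and 7.66 in cKO mice and 7.96, 7.47, 7.84 and 7.73 in cCT mice. Here cKO replicate 4 alone fell among the cCT arrays, and the log2 fold change was 0.60 (adjusted p = 0.465 from limma). ILMN_2656415, also annotated to Siglech, was detected on 0 of 8 arrays and was not tested.

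Gpr34, a receptor for lysophosphatidylserine, had 8.93, 8.50, 9.06 and 8.79 in cKO mice and 7.93, 8.83, 8.58 and 8.33 in cCT mice by ILMN_2742840 (log2 fold change 0.40, adjusted p = 0.573 from limma). The groups overlapped through cCT replicates 2 and 3, and the difference was 0.24 without cCT replicate 1. By ILMN_1237817 it had 8.63, 8.53, 8.59 and 8.42 in cKO mice and 7.64, 8.43, 8.40 and 7.75 in cCT mice. The cKO arrays were tightly grouped and cCT replicate 2 just reached the lowest of them, with a log2 fold change of 0.49 (adjusted p = 0.456 from limma).

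Tmem119, a membrane protein that marks microglia in the mouse brain, had 8.97, 9.24, 9.31 and 8.99 in cKO mice and 8.62, 9.09, 8.61 and 8.66 in cCT mice. Only cCT replicate 2 reached the cKO range, and the log2 fold change was 0.38 (95% interval 0.04 to 0.72, adjusted p = 0.451 from limma). Olfml3, a secreted olfactomedin-like protein, had 10.52, 10.54, 10.97 and 10.30 in cKO mice and 10.32, 10.17, 9.89 and 9.98 in cCT mice. The groups overlapped by 0.02, between cKO replicate 4 and cCT replicate 1. The log2 fold change was 0.49 (95% interval 0.11 to 0.87), with an adjusted p of 0.350 from limma and p = 0.0571 in the two-sided exact permutation test.

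Sall1, the zinc finger transcription factor that maintains microglial identity in the mouse, was the member with the smallest difference by the brightest probe. Its brightest probe, ILMN_2853800, had 8.83, 8.78, 8.44 and 8.89 in cKO mice and 8.54, 8.79, 8.69 and 8.52 in cCT mice, with a log2 fold change of 0.10 (95% interval -0.21 to 0.41, adjusted p = 0.843 from limma). ILMN_2643443 had 7.14, 7.07, 6.99 and 6.56 in cKO mice and 7.27, 7.05, 7.36 and 6.78 in cCT mice, with a log2 fold change of -0.18 (95% interval -0.57 to 0.22, adjusted p = 0.773 from limma). The groups overlapped by each probe, the probes differed in sign, and the mean of both gave -0.04. With 1 array left out the first ranged from 0.05 (without cKO replicate 4) to 0.20 (without cKO replicate 3) and the second from -0.29 (without cCT replicate 4) to -0.05 (without cKO replicate 4). Sall1 is also expressed outside microglia in some tissues.

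Aif1 encodes Iba1, an actin-binding protein of microglia and other macrophages that is widely used to stain them. It had 9.64, 9.75, 10.32 and 8.39 in cKO mice and 8.88, 7.84, 8.36 and 8.70 in cCT mice by ILMN_1212938, with means of 9.53 ± 0.81 and 8.45 ± 0.46 (SD, n = 4 each). Of the cKO arrays, 3 lay above all cCT arrays and replicate 4 lay among them. The log2 fold change of 1.08 (SE 0.38, 95% interval 0.22 to 1.94) did not pass (adjusted p = 0.379 from limma), and the two-sided exact permutation test gave p = 0.0857. ILMN_2804487 had 9.16, 9.25, 9.73 and 8.28 in cKO mice and 8.76, 7.73, 8.08 and 8.04 in cCT mice, in the same order of cKO arrays, with a log2 fold change of 0.95 (adjusted p = 0.325 from limma). ILMN_1218123 was detected on cKO replicate 3 alone and was not tested. Without cKO replicate 4, the log2 fold changes of both tested Aif1 probes were 1.46 and 1.23 and passed (adjusted p = 0.0335 and 0.0467 from limma). Without cKO replicate 3 they were 0.82 and 0.75 and did not pass (adjusted p = 0.749 and 0.657 from limma).

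**Figure D2:**
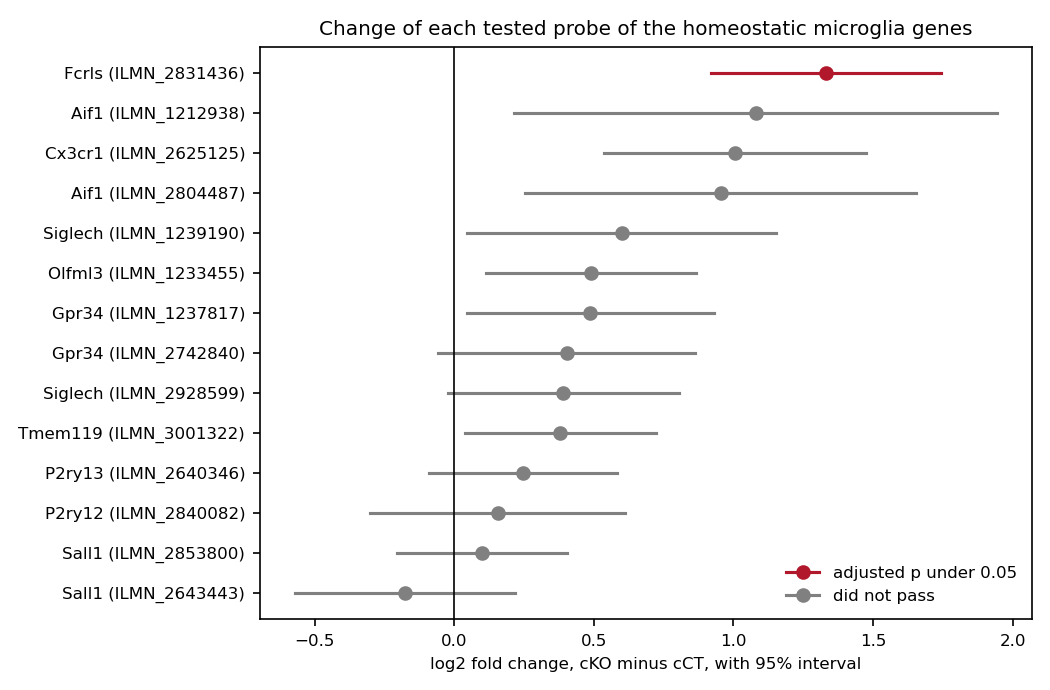
Log2 fold change (cKO minus cCT) of the 14 tested probes of the homeostatic microglia genes, with the 95% interval of the limma fit as a horizontal line. Fcrls, in red, passed at an adjusted p under 0.05, Aif1 and Cx3cr1 follow with changes of 0.95 to 1.08 that did not pass, and the probes of Sall1 lie on opposite sides of 0.

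The change of Fcrls was compared with that of the other members by exact permutation tests on the difference of log2 values within each array, over all 45 pairs of genes, a comparison chosen after the values had been seen. The difference from Fcrls did not overlap between groups for P2ry12, P2ry13, Tmem119, Siglech, Gpr34, Olfml3 and Sall1. It was largest for Sall1, at 1.23, and P2ry12, at 1.18. Each of these pairs had p = 0.0286 in the two-sided exact test, the smallest value that this number of arrays allows. It was 0.161 after adjustment over 45 pairs, so 0 pairs passed and 8 did before adjustment. A pair could pass after adjustment only if most of the 45 pairs had this smallest p. The adjusted result therefore cannot decide whether Fcrls changed more than other members. The pairs with Fcrls reuse the same Fcrls values, and no share among pairs of all tested genes is given beside the 8. Fcrls and Cx3cr1 differed by 0.33 (exact p = 0.257) and Fcrls and Aif1 by 0.25 (exact p = 0.629). The eighth pair was Cx3cr1 and Sall1, at 0.91.

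The arrays of a group differed in their values for the members. Of the cKO arrays, replicate 3 had the highest value for 7 of the 10 genes, and replicates 2 and 4 each had the lowest for 4. Replicates 1 and 3 lay above every cCT array for 7 genes each, replicate 2 for 5 and replicate 4 for 4. Of the cCT arrays, replicate 2 was the highest for 6 genes, among them P2ry12, Tmem119 and Gpr34. The corresponding counts over all tested genes are not given, so these counts by array have no background beside them. Relative to the cCT mean, the median of the 10 genes was 0.47, 0.34, 0.61 and 0.25 in cKO replicates 1 to 4 and -0.11, 0.13, -0.03 and -0.09 in cCT replicates 1 to 4.

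**Figure D3:**
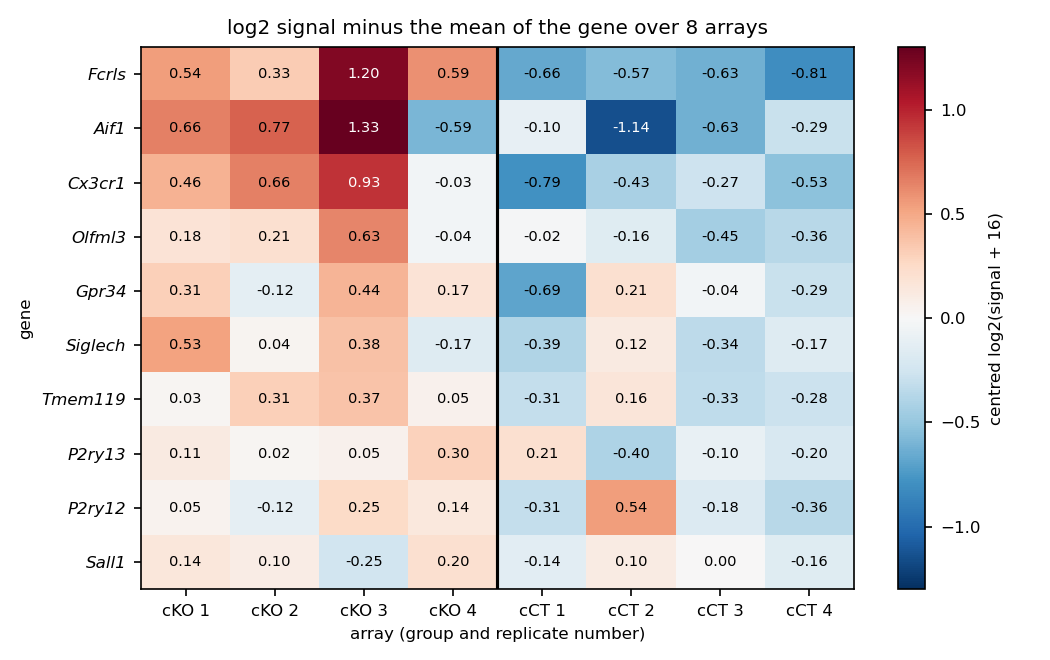
Log2(signal + 16) of the brightest probe of each member (rows) on each of the 8 arrays (columns), minus the mean of the gene over the arrays, with red above and blue below that mean. Fcrls is above its mean on all 4 cKO arrays and below it on all 4 cCT arrays, Aif1 and Cx3cr1 are highest on cKO replicate 3 and, among cKO arrays, lowest on replicate 4, and Sall1 stays within 0.25 of its mean.

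The disagreement among probes to a shared gene also differed between arrays. It was summarised by the leading axis of variation in the deviations of bright probes from the mean of their gene (2608 probes of 1167 genes, members left out), and its score was 0.02, 0.35, 0.73 and -0.43 in cKO replicates 1 to 4 and -0.03, -0.24, -0.32 and -0.08 in cCT replicates 1 to 4. The sign of such a score is arbitrary. It was highest on cKO replicate 3 and lowest on cKO replicate 4, as were, among cKO arrays, the values of Cx3cr1 and Aif1. The scores of cKO replicates 1 to 3 lay above those of every cCT array, so a fit with both cannot fully separate score from group. The order of the cCT arrays by the score differed from that by the median of the 10 genes. The array of cKO replicate 4 had the lowest score of all 8 arrays, and its median was above every cCT array. These orders are descriptions, and the part of the score in the differences of the members was not tested. With the score as a covariate, a fit added after the data had been seen, Fcrls was 1.21 higher (adjusted p = 0.0406 from limma), while the log2 fold change was 0.79 for Cx3cr1 (adjusted p = 0.171) and 0.53 for Aif1 (ILMN_1212938, adjusted p = 0.522). Siglech by ILMN_1239190 had 0.28, Olfml3 had 0.31 and P2ry12 had 0.18 in that fit, and 5 member probes were below an unadjusted p of 0.05. The share of all tested probes at that threshold is not given for the fit, so this count has no background beside it.

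Other homeostatic microglia genes had a median change close to that of the members. Of 23 such genes matched by symbol, 20 were tested, of which 2 rose and 0 fell (limma, adjusted p under 0.05, with 9 higher and 0 lower before adjustment). Their median log2 fold change was 0.33, with 15 genes above 0 and 5 below, over a range of -0.74 to 1.33. By the brightest probe 0.777% of all tested genes were higher and 0.0288% lower. P2ry6, a UDP receptor linked to phagocytosis, had 9.76, 9.77, 10.43 and 9.75 in cKO mice and 8.37, 8.91, 8.67 and 8.47 in cCT mice. These groups did not overlap, and the log2 fold change was 1.33 (adjusted p = 0.0170 from limma). Abi3, an adaptor of the actin cytoskeleton, rose by 0.83 (adjusted p = 0.0230). The call of P2ry6 was lost without cKO replicate 1 or cCT replicate 1, 3 or 4, and that of Abi3 without cKO replicate 1 or 2 or any cCT array (adjusted p up to 0.0707 and 0.0909). The inhibitory receptor Cd33 had a log2 fold change of 0.95 (adjusted p = 0.0753) and Sparc, a matrix protein also made by other glia and vessels, 0.57 (adjusted p = 0.144), and neither passed. Cd33, a dim probe, had 0.28 without background correction. Slc2a5 and Bhlhe41 were detected on no array.

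Of 18 purinergic receptors other than the members, 8 were tested, and only P2ry6 passed. P2ry1 had a log2 fold change of -0.40 (adjusted p = 0.325 from limma) with all cKO arrays below all cCT arrays, and Gpr17, a receptor of oligodendrocyte precursors, had -0.83 with overlapping groups (adjusted p = 0.269). Among ligands, partners and regulators of the members, 20 of 24 were tested, 1 rose and 0 fell, and the median was 0.19. The one that rose was Irf8, a transcription factor of microglia and other myeloid cells, with 8.04, 7.75, 8.48 and 7.46 in cKO mice and 6.55, 6.39, 6.74 and 6.47 in cCT mice (log2 fold change 1.39, adjusted p = 0.0195 from limma). These groups did not overlap, but the call was lost without cKO replicate 1 or any cCT array (adjusted p up to 0.0789). Without background correction Irf8 had 0.60 (adjusted p = 0.0481). Tyrobp, the adaptor of Siglech, had 1.20 (adjusted p = 0.0667), and the transforming growth factor beta receptors Tgfbr2 and Tgfbr1 had 0.52 (adjusted p = 0.144) and 0.48 (adjusted p = 0.219).

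The pan-macrophage list and the list of disease-associated microglia genes had larger median differences than the members. Of 13 tested pan-macrophage genes, 7 rose and 0 fell, with a median of 1.25, led by Cd14, the co-receptor for lipopolysaccharide, at 1.48 (adjusted p = 0.00159 from limma), and including Cd53, Ctss and C1qa at 1.31, 1.25 and 1.26. Of the 6 genes of that list that did not pass, Rac2, Coro1a and Lcp1 had 0.45, 0.20 and 0.05. The summed signal of the list was 33104 to 53341 in cKO mice and 19754 to 21144 in cCT mice, while Itgam and Cybb were detected on no array. Cd53, Ctss and C1qa each lost the call without cKO replicate 1 or cCT replicate 3 or 4, and C1qa also without cKO replicate 2 or cCT replicate 2 (adjusted p up to 0.0580, 0.0650 and 0.0788). Of 19 tested genes of disease-associated microglia, 6 rose and 0 fell, with a median of 0.91. Clec7a, a receptor for beta-glucans, was detected on all 4 cKO arrays and on 0 cCT arrays. It therefore passed the detection filter through the cKO group alone, as did Cst7 and Ccl6 of this list. Clec7a was at least 5.92-fold higher in cKO mice, taking for each cCT array the higher of the probe's own value and the lowest detected signal. Its fitted log2 fold change, which uses the undetected cCT values, was 2.85 (adjusted p = 0.000446 from limma). Without background correction Clec7a had 1.21 (adjusted p = 0.000864) and Cd14 had 0.93 (adjusted p = 0.00142). Cd53 had 0.87 without background correction (adjusted p = 0.00991). Lgals3, Gpnmb and Lpl rose by 2.13, 2.07 and 1.08 on the log2 scale (adjusted p = 0.000977, 0.00470 and 0.0113). By array, the median of the pan-macrophage genes relative to the cCT mean was 1.25, 1.04, 1.59 and 0.77 in cKO replicates 1 to 4, highest on replicate 3 and lowest on replicate 4, as for the 10 homeostatic genes.

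**Figure D4:**
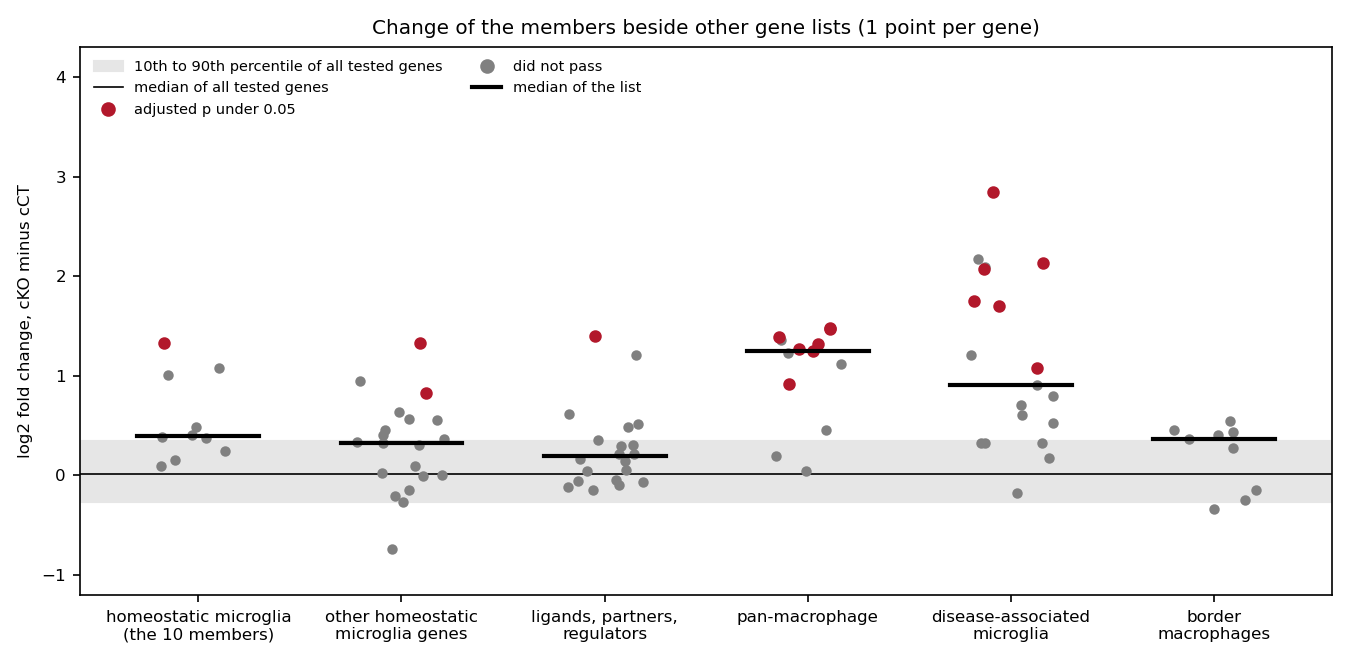
Log2 fold change (cKO minus cCT) of the homeostatic microglia genes beside other gene lists, 1 point per gene by its brightest tested probe, red where the adjusted p was under 0.05, with the list's median as a thick line and the 10th to 90th percentiles of all tested genes in grey. Medians are 0.40 for the 10 members, 0.33 for other homeostatic genes, 0.19 for ligands, partners and regulators, 1.25 for pan-macrophage genes, 0.91 for disease-associated microglia and 0.37 for border macrophages.

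Several members are also expressed outside microglia, so markers of other cells were examined in the same fit. Of 10 border macrophage genes 9 were tested and 0 passed (1 higher before adjustment). Their median was 0.37 and their summed signal was 1813 to 2552 in cKO mice and 1568 to 2162 in cCT mice, and Mrc1 and Cd163 had 0.54 and 0.46 (adjusted p = 0.372 and 0.611 from limma). Of monocyte and neutrophil genes 9 of 14 were tested and 0 passed (1 higher and 1 lower before adjustment), and Ccr2 was detected on no array. The summed signal of that list was 4925 to 7858 in cKO mice and 4732 to 6186 in cCT mice, with Lcn2 at 2.37 (adjusted p = 0.294) and Camp at -0.95 (adjusted p = 0.158). Of 15 lymphocyte genes 2 were tested and neither passed, with 0 below an unadjusted p of 0.05, and 8 were detected on no array, Cd4, Cd8a, Cd79a and Ms4a1 among them. For plasmacytoid dendritic cells, which express Siglech, 4 of 7 genes were tested, Ccr9, Klk1 and Ly6d were detected on no array, and 3 genes were higher and 0 lower before adjustment. Their median was 1.16 (1.02 with Cox6a2 at the bound below), with Irf7 at 1.27 (adjusted p = 0.442) and Bst2 at 1.05 without overlap between groups (adjusted p = 0.173). The summed signal of the list overlapped, at 10697 to 14119 in cKO mice and 11604 to 14346 in cCT mice, most of it from Tcf4, which had -0.03 (adjusted p = 0.969) and is expressed by many cells. Cox6a2, the only gene of that list that passed, was detected on 4 cKO arrays and 0 cCT arrays. It therefore passed the detection filter through the cKO group alone, and by the bound used for Clec7a it was at least 2.01-fold higher in cKO mice. Its fitted log2 fold change, which uses the undetected cCT values, was 1.36 (adjusted p = 0.0336 from limma). That call was lost without cKO replicate 1 or 2 or any cCT array. It was also lost under quantile normalization, no background correction and median scaling (adjusted p up to 0.194). The part of border macrophages, plasmacytoid dendritic cells and other cells in the higher signal of Fcrls, Cx3cr1 and Aif1 was not tested.

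Markers of neurons, oligodendrocytes, astrocytes and of fibroblasts and pericytes did not pass, with medians of -0.11 for 6 tested neuronal genes, -0.24 for 6 of oligodendrocytes, 0.08 for 8 of astrocytes and 0.04 for 10 of fibroblasts and pericytes. Before adjustment 0 neuronal genes, 1 oligodendrocyte gene (lower), 2 astrocyte genes (higher) and 1 gene of fibroblasts and pericytes (higher) were under 0.05. Snap25, Gad2 and Nefl of the neuronal list were detected on no array, whereas Slc17a6, Gad1 and Syt1 were detected on all 8. Detection on no array can reflect the probe and does not show that a transcript was absent. The same holds for every gene so described above. Gfap, the astrocyte filament, had a log2 fold change of 0.85 (adjusted p = 0.297 from limma).

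The genes whose pattern over the 8 arrays was closest to a member were found for the members with a log2 fold change of at least 0.5, whether or not it passed, by the root mean square difference of centred log2 values. For Fcrls these were Myo1f, an unconventional myosin of leukocytes, at 0.13 and P2ry6 at 0.13, with log2 fold changes of 1.40 and 1.33 (adjusted p = 0.00470 and 0.0170 from limma). For Cx3cr1 they were Hmox1, the haem-degrading enzyme, at 0.16 and the class I histocompatibility gene H2-Q7 at 0.18, with log2 fold changes of 0.90 and 0.81 (adjusted p = 0.144 and 0.274). For Aif1 they were Fcer1g, an adaptor of Fc receptors, at 0.23 and AA467197 at 0.24, with 1.23 and 0.92 (adjusted p = 0.184 and 0.423). Closeness is a description over 8 arrays, and near-identical class I genes may share the H2-Q7 probe.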

How the data were processed

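Brainstem RNA of 8 mice was hybridised to arrays of 1 beadchip. The authors deposited, per probe and array, the signal intensity from GenomeStudio (version not given in the sources used here) before normalization, with a detection p-value, the number of beads and their standard error. The authors also deposited a table of background-subtracted, average-normalized intensity, used as an alternative. The 10 genes, the comparison lists and the tests were chosen with earlier results of these data known.

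Signals were background corrected by normexp from the detection p-values, scaled to the same mean, and transformed as log2(signal + 16), with R 4.3.3 and limma 3.58.1. The 15225 probes detected at p under 0.05 on 3 or more of 8 arrays were fitted with limma's lmFit and eBayes, with Benjamini-Hochberg adjustment over all of them and a threshold of 0.05. Single values were also tested by two-sided exact permutation over the 70 arrangements of 4 arrays against 4. Tests compare these mice only and the number of arrays limits their precision. The custom error model of the methods was not repeated. Gene symbols came from the platform annotation, with 23978 probes named and 1719 unnamed. Each gene is represented by the tested probe with the highest mean log2 signal.

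Named genes were every member and probe, Ndufs4, up to 4 genes with the smallest p of each comparison list, up to 2 with the largest change of each marker list, and the 2 closest profiles of members with a log2 fold change of at least 0.5. Member probes had 23 to 57 beads per array, with a bead standard error of 2.72 to 9.36% of the signal. Alternatives changed the normalization (quantile, median scaling or the authors' normalized table), the background correction (none), the offset (1 or 50), the filter (none, or strict), the model (variance trend with robust moderation, array weights, or replicate number as block), the call (unadjusted p), the value of a gene (mean of its probes), the detection threshold (0.01) and the arrays (each left out in turn). A covariate for the spread between probes of a gene and the comparison of member pairs were added after the data had been seen. The fit was tested on simulated data.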

Additional observations from a re-analysis of the deposited data

Results flagged for a closer look

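There were 5 values that stood apart from the other 3 arrays of their group, among the 106 groups of 4 arrays examined for 53 probes, where chance alone is expected to give about 1 in 20. Each is given with the gap to the nearest array as a share of the group's range. Tmem119 was 9.09 on cCT replicate 2, against 8.66 on the next highest cCT array, a share of 0.899. Clec7a was 6.03 on the same array, against 5.60 on the next (0.991), although it was not detected there, and P2ry1 was 11.08, against 10.69 (0.857). P2ry6 was 10.43 on cKO replicate 3, against 9.77 on the next (0.972). Cd3e was 6.15 on cKO replicate 4, below the next lowest cKO array at 6.80 (0.947). Of the 5 values, 3 were on cCT replicate 2, the array on which P2ry12 and Gpr34 were also highest within the cCT group.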

How the results depend on the processing

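Over 20 alternative fits, the 14 tested probes of the homeostatic genes gave 280 values, of which 270 kept their direction and their side of the threshold, 4 lost the call (all Fcrls), 6 gained one (Cx3cr1 and both Aif1 probes) and 0 changed sign. Fcrls ranged from 1.05 to 1.44. Without background correction the differences of dimmer probes shrank by over 1.5 times, among them P2ry12 (0.09), P2ry13 (0.16), Siglech ILMN_1239190 (0.34), both Gpr34 probes (0.28 and 0.25) and Aif1 ILMN_2804487 (0.63). The number of member probes that passed was 1, and it was 2 without background correction, with the variance trend and with array weights, 8 at an unadjusted p, and 0 to 4 with 1 array left out, 4 of them without cKO replicate 4. The total over all probes was 107, and it was 240 with array weights, 1505 at an unadjusted p, 70 with the probe spread covariate and 30 to 357 with 1 array left out, the highest without cKO replicate 4. Of the comparison genes 17 passed, against 27 with array weights and 5 to 29 with 1 array left out. For Ndufs4, 0 probes passed with median scaling and 0 to 1 with 1 array left out, with 1 probe under an unadjusted p of 0.05 in each of these limma fits. The deviations of arrays with the same replicate number had correlations of -0.26 to -0.19. The labels do not say whether the numbers pair mice, and these correlations cannot settle it. With the replicate number as a block, 0 member probes, 11 probes in all, 0 Ndufs4 probes and 2 comparison genes passed in limma. In that fit 8 member probes and 1 Ndufs4 probe were under an unadjusted p of 0.05, with no share of all tested probes given beside them. Klrb1c, at 0.07, was -0.016 without background correction, -0.018 with array weights, -0.16 with the probe spread covariate and -0.11 to 0.19 with 1 array left out. Cd3e, at -0.10, was 0.079 with array weights and -0.20 to 0.071 with 1 array left out. The causes of these shifts were not tested. Siglech and Aif1 each had 1 probe not well enough detected to be tested, while their 2 tested probes were detected on every array.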
